A study of Mus musculus with 4 samples.

Results

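Nonproductive receptor contigs were the T-cell receptor transcripts that the deposited tables did not mark as productive, that is, as able to code for a complete chain. A contig is a transcript rebuilt from the reads of 1 cell barcode. Of 655 contigs in both receptor libraries, 239 were nonproductive, 51 of 159 in the control library (32.1%, exact 95% interval 24.9 to 39.9) and 188 of 496 in the library from mice given all-trans retinoic acid (ATRA) (37.9%, 33.6 to 42.3). Each was placed in a class by whether a V segment, a J segment and a CDR3, the loop that spans the V-J joint, were named for it. The study concerned retinoic acid signaling and immune escape in IDH-mutant glioma. At 6 weeks of age C57BL6 mice were injected with 50000 neurosphere cells in the striatum, a region deep in the forebrain. ATRA at 10 mg/kg or control followed by the peritoneal route, on alternate days, until signs of disease of the central nervous system; the genotype of the neurosphere line beyond the title is not stated. Immune cells were sorted by CD45, a surface protein of blood-derived cells, from tumors cut out along with nearby brain, and were put through a 10x Genomics 5-prime kit. There was 1 receptor library per treatment with no stated number of mice behind it, so no test between treatments was possible, and every interval below is an exact one that covers counting error only.

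A T cell builds the gene of its receptor by cutting and joining DNA: a V and a J segment for the alpha chain (TRA), and a V, a D and a J segment for the beta chain (TRB). Bases are trimmed and added at each joint, so many joints leave the reading frame, and the failed gene stays in the genome beside a working one on the other chromosome. Beta rearrangement is held to a single working gene per cell, which is called allelic exclusion, while alpha rearrangement goes on along both chromosomes and can replace earlier joints with ones that use V and J segments further apart. Transcription also starts near D and J segments that have not been joined to any V, which gives transcripts of a J segment and a constant region with no V. For a V segment upstream of the J segments, the DNA between the joined segments is lost from that chromosome. J segments upstream of the one in use are then gone from it, while those downstream remain. TRBV31 lies downstream of all TRBJ segments, so this does not hold for it.

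The deposited CDR3 of a nonproductive contig always had a length that was a multiple of 3, and 0 of them held a stop sign, so the frame had to be read from the letters. The first 6 bases were compared with the CDR3 starts of productive chains of the same V segment. Where that segment had none, productive chains of its V family, the segments that share its number, were used. The last 9 bases were compared with the CDR3 ends of productive chains of the same J segment. The sequences below show the kinds of CDR3 this separated, because the rest of the results turns on the difference. In the first set the CDR3 was out of frame, and capitals mark the stretch of V or J segment that productive chains hold in another frame.
TRAV12D-2 with TRAJ16, ATRA: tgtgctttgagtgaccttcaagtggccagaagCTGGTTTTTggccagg
TRAV13-2 with TRAJ44, ATRA: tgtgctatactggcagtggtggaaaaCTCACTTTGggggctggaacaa
TRAV12-3 with TRAJ37, ATRA: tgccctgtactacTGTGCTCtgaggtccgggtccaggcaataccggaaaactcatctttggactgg
TRBV14 with TRBJ2-5, ATRA: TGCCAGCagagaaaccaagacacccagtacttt
TRBV15 with TRBJ1-1, ATRA: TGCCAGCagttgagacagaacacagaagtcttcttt
TRBV15 with TRBJ1-6, control: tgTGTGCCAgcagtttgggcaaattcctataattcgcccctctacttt
The TRAV12D-2 and TRAV13-2 joints began as productive chains do and ran 7 and 13 bases past the usual end of the J segment. The TRAV12-3 joint was read from 13 bases before the usual start. The TRBV14 and TRBV15 joints with TRBJ2-5 and TRBJ1-1 were read from 2 bases inside the usual start, so the J end was the usual one and the V start was not. The TRBV15 joint with TRBJ1-6 was read from 2 bases before it. In the second set both ends were those of productive chains, and capitals are not used.
TRAV21-DV12 with TRAJ53, ATRA: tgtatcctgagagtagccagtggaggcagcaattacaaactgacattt
TRBV5 with TRBJ2-4, ATRA: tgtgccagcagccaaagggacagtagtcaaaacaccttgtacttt
TRBV19 with TRBJ2-3, control: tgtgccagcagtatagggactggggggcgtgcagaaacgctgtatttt
These TRA and TRB letters were also the productive CDR3 of 13 and 8 other cells, counted over both libraries, while the TRBV19 letters occurred in 2 control cells and were productive in neither.

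A J segment without a V was found on 28 of 51 control contigs (54.9%, 40.3 to 68.9) and 93 of 188 ATRA contigs (49.5%, 42.1 to 56.8). A V without a J was found on 1 control contig, TRBV10 of 353 bases, and on 2 ATRA contigs, TRAV9-2 of 455 bases and TRAV12-2 of 336 bases, each with 1 UMI (unique molecular identifier, the tag of 1 captured RNA molecule). Both segments were named on 22 control contigs (43.1%, 29.3 to 57.8) and 93 ATRA contigs (49.5%, 42.1 to 56.8). Of those with both, 5 control and 37 ATRA contigs had no CDR3, 3 and 26 had a CDR3 out of frame, 13 and 25 had a CDR3 in frame, and 1 and 5 used segments with no productive chain to compare with. The tables marked 22 control and 92 ATRA contigs as full length. These were the contigs with both segments, except 1 ATRA TRAV4-4-DV10 contig with TRAJ40. By locus, TRB held 42 of 51 control contigs (82.4%, 69.1 to 91.6) and 119 of 188 ATRA contigs (63.3%, 56.0 to 70.2).

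**Figure D1:**
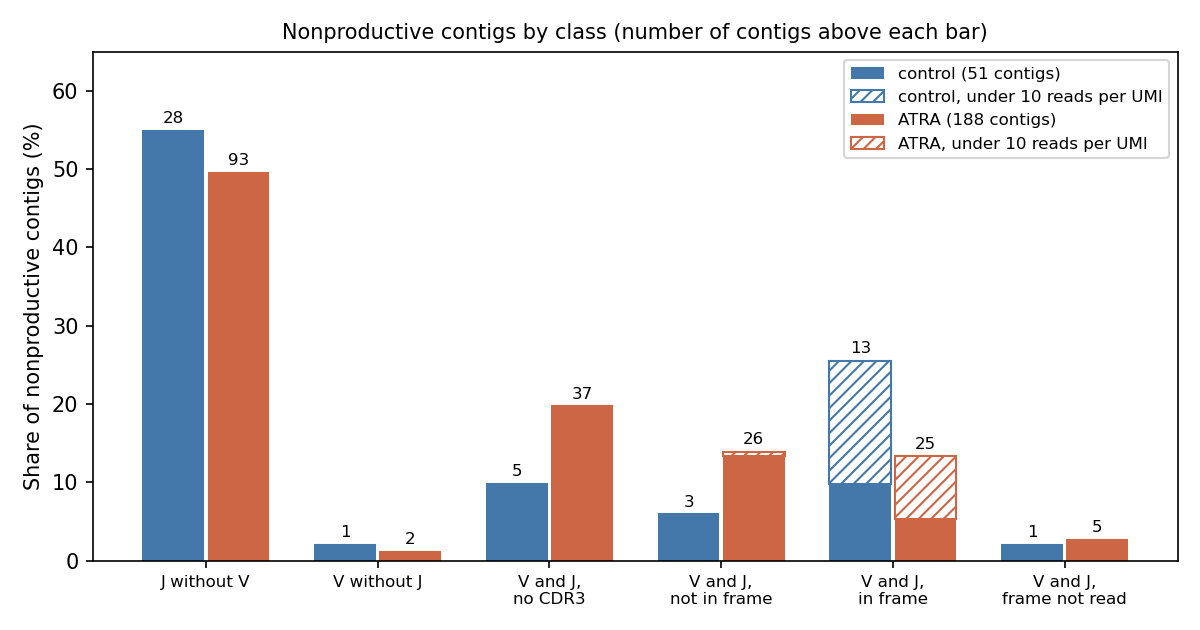
Bars give the share of each library's nonproductive contigs (y axis, percent) in each class (x axis), with the number of contigs above each bar and hatching for contigs with under 10 reads per UMI. J segments without V have the tallest bar in both libraries, contigs with both segments being split by their CDR3, and the hatched contigs lie almost wholly in the in-frame class.

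Depth differed between the libraries and touches each share below. A cell had a median of 6 UMIs over all its receptor contigs in the control library (quartiles 4 and 7.75), where an ATRA cell had 12 (9 and 19). A nonproductive contig had a median of 1 UMI in the control library and 3 in the ATRA library, against 3 and 5 for productive contigs. Nonproductive contigs held 157 of 539 control UMIs (29.1%, 25.3 to 33.2) and 679 of 2520 ATRA UMIs (26.9%, 25.2 to 28.7). They numbered 0.689 per control cell (0.513 to 0.906; 74 cells) and 1.18 per ATRA cell (1.01 to 1.36; 160 cells). The cells with at least 1 were 51.4% in control (38 of 74) and 73.8% in ATRA (118 of 160). After each cell was thinned to 6 UMIs, leaving out 36 control and 5 ATRA cells with fewer, the expected shares were 60.7% of 38 cells and 66.0% of 155 cells, where the same cells unthinned gave 63.2% and 76.1%. The part of depth in the difference was not tested beyond this thinning. No barcode occurred in both libraries (0 shared).

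Contigs of a J without a V were almost wholly of the TRB locus, 28 of 28 in control and 87 of 93 in ATRA. They were short, with a median of 362 bases in control and 371 in ATRA, against 543 and 545 for productive contigs. Their median was 2 UMIs in control (range 1 to 10) and 3 in ATRA (1 to 22), and each of the 121 had at least 14 reads per UMI. In control they occurred in 25 of 74 cells (33.8%, 23.2 to 45.7), in ATRA in 68 of 160 (42.5%, 34.7 to 50.6). Among the 38 control and 155 ATRA cells with at least 6 UMIs the shares were 42.1% and 43.9%, and after thinning of these cells to 6 UMIs 38.8% and 37.6%. Leaving out the shallower cells, 36 of them in control, thus moved the control share up, and reads per UMI were not matched. A C segment was named on 23 of 24 such contigs with a TRBJ1 segment and 0 of 91 with a TRBJ2 segment, which in these tables is also so for productive TRBJ2 contigs. No contig in the tables carried a D segment name, so a transcript of a D-J joint and one of a J that was never joined cannot be told apart.

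The segments used most were TRBJ2-7 in control and TRBJ2-1 in ATRA. TRBJ2-7 (chr6:41543810-41543856 in RefSeq's annotation of GRCm38.p6, as for all positions below) is the last functional J segment of the beta locus, and TRBJ2-1 (chr6:41542754-41542803) the opening one of its second cluster. In control, 9 of 28 contigs without V used TRBJ2-7, 6 used TRBJ2-1, 5 used TRBJ2-4, 3 used TRBJ2-3 and 2 used TRBJ2-5. In ATRA, 28 used TRBJ2-1, 13 used TRBJ2-7, 9 used TRBJ2-3 and 7 used TRBJ2-5. TRBJ1-1, TRBJ1-3 and TRBJ2-4 followed with 6 ATRA contigs each. The TRBJ2 cluster gave 26 of 28 control contigs (92.9%, 76.5 to 99.1) and 65 of 87 ATRA contigs (74.7%, 64.3 to 83.4). For productive TRB the share of cells on that cluster was 71.4% in control (50 of 70, 59.4 to 81.6) and 64.2% in ATRA (95 of 148, 55.9 to 71.9). The intervals of the contigs without V and of the productive chains overlapped in both libraries. Segment by segment they overlapped too, also for TRBJ2-4 in control, with 17.9% of contigs without V (6.06 to 36.9) against 1.43% of cells with a productive TRB (0.0362 to 7.70).

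**Figure D2:**
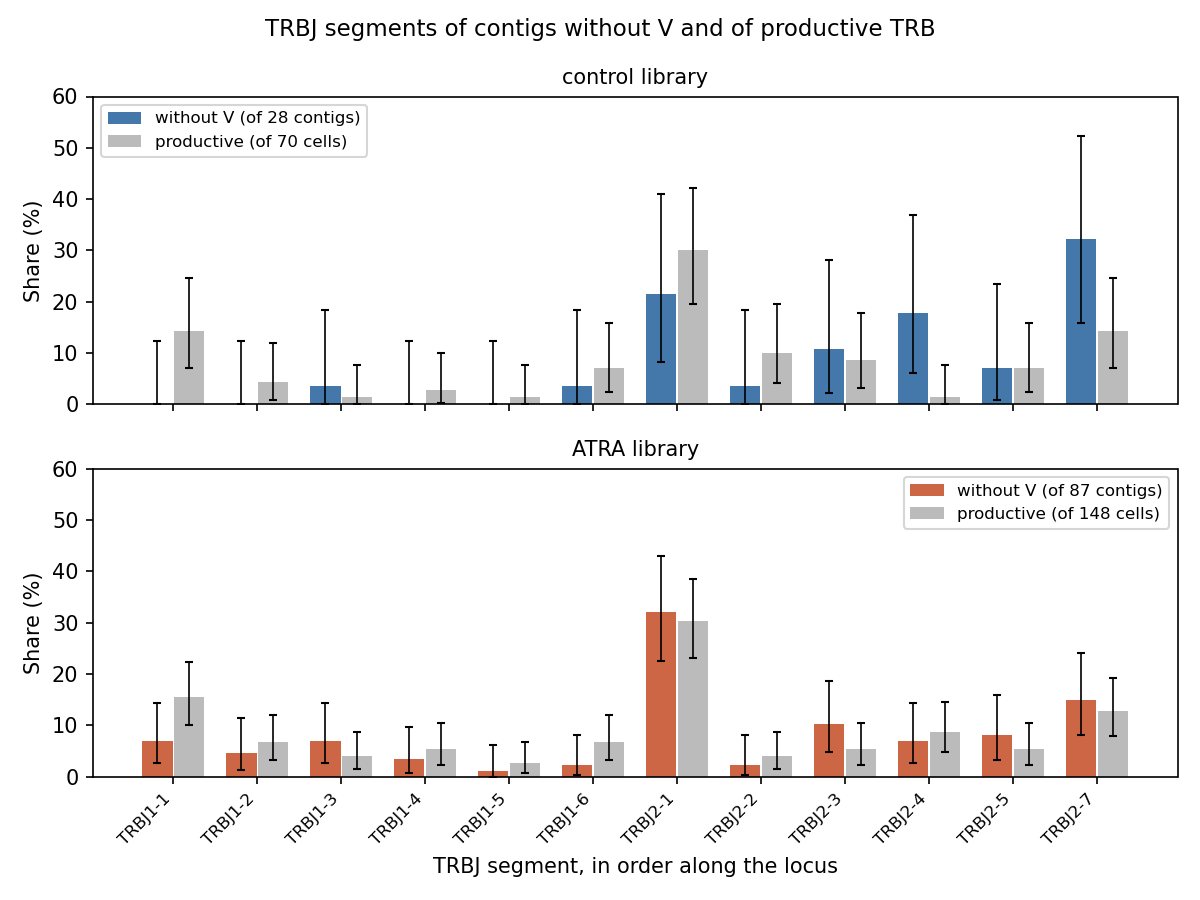
Bars give the share (y axis, percent) of TRB contigs without V, in color, and of cells with a productive TRB, in grey, that used each TRBJ segment (x axis), with exact 95% binomial intervals that cover counting error only. TRBJ2-1 and TRBJ2-7 lead among contigs without V in both libraries, and the intervals of the paired bars overlap.

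The J segment of a contig without V was almost never that of the productive TRB in the same cell. In control, 0 of 28 such contigs matched (exact interval 0 to 12.3%), and in ATRA 1 of 75 in cells with a productive TRB did (1.33%, 0.0338 to 7.21). The same J segments were productive in a mean of 13.6% of the other control cells and 15.8% of the other ATRA cells. TRBJ2-1 shows this most plainly. Of the 148 ATRA cells with a productive TRB, 45 used TRBJ2-1 (30.4%), and none of those 45 was among the 23 cells with TRBJ2-1 on a contig without V (0 shared). TRBJ2-7 held the only match, in 1 of the 12 ATRA cells with a productive TRB and a TRBJ2-7 contig without V.

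Position along the locus was also counted, by the TRBJ cluster of the productive chain. In ATRA cells with 1 productive TRB on a TRBJ1 segment, 37 of 38 contigs without V used a J segment downstream of it and 1 used one upstream. In ATRA cells with 1 productive TRB on a TRBJ2 segment, 13 were downstream, 15 upstream and 1 was the same segment. The control cells gave 8 downstream and 0 upstream with a TRBJ1 chain, and 12 and 6 with a TRBJ2 chain. TRBJ1 lies upstream of TRBJ2, so a TRBJ1 chain leaves more segments downstream. Productive chains with TRBV31, which lies downstream of all TRBJ segments, were counted in the same way, among them TRBV31 with TRBJ1-4 in ATRA. By cluster, cells whose productive TRB used TRBJ1 had 34 ATRA contigs without V on TRBJ2 and 7 on TRBJ1, and those whose productive TRB used TRBJ2 had 19 and 12. In control the numbers were 9 and 1 with a TRBJ1 chain and 17 and 1 with a TRBJ2 chain. The pair of TRBJ2-1 without V and TRBJ1-1 productive was the most frequent in ATRA, with 12 occurrences, and occurred 2 times in control, where TRBJ2-7 without V with productive TRBJ1-1 and with productive TRBJ2-1 occurred 3 times each.

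**Figure D3:**
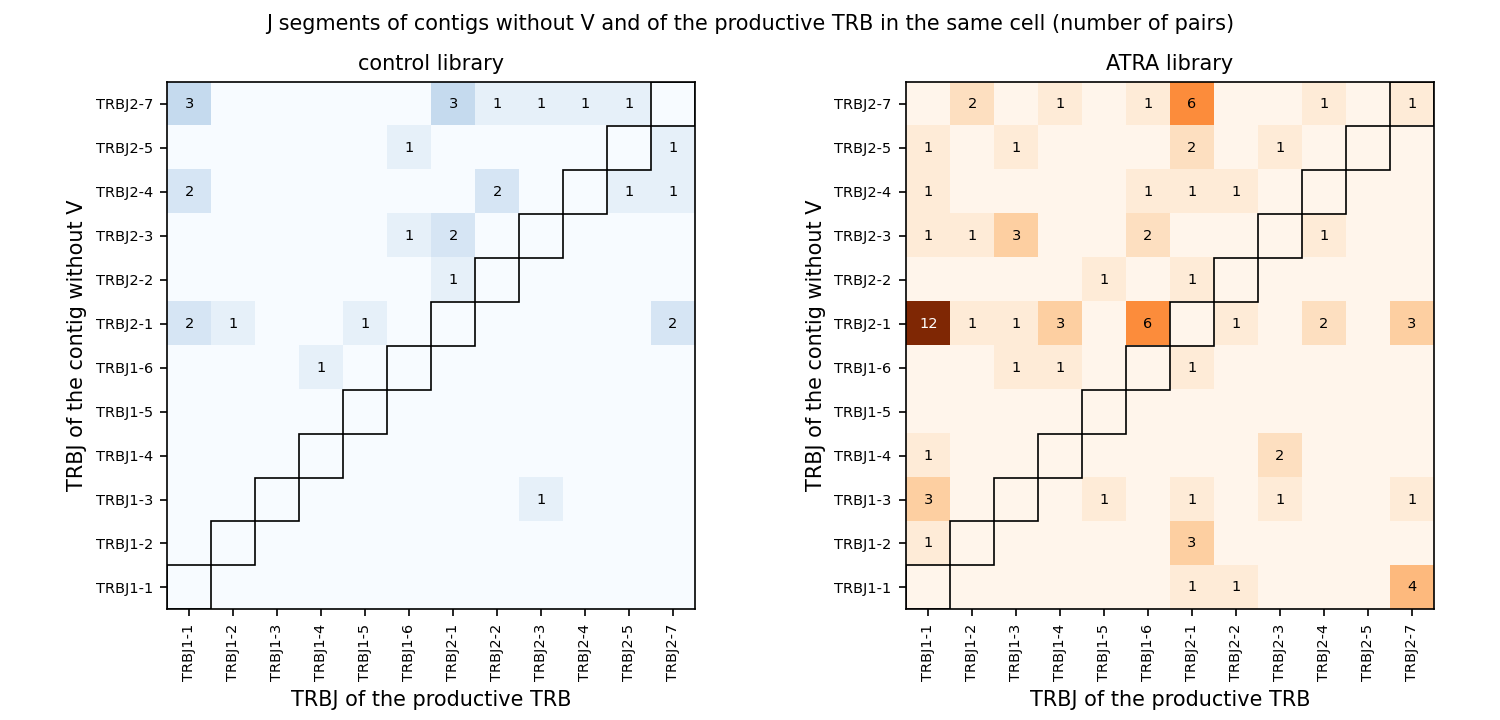
Each square gives the number of pairs in which a contig without V used the TRBJ segment on the y axis and a productive TRB of the same cell used the one on the x axis, both in order along the locus, with same-segment squares outlined. The outlined squares hold 0 pairs in control and 1 in ATRA, and TRBJ2-1 with TRBJ1-1 in ATRA is the fullest square, with 12.

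Several TRB contigs without V could occur in 1 cell. In control 3 of the 25 cells had 2, and in ATRA 13 of 68 cells had 2 and 3 had 3. The J segments of 1 cell were all different in each of the 3 control cells and in 14 of the 16 in ATRA, and 5 of the 16 used both clusters. The deepest contig was a TRBJ2-1 contig of 407 bases with 22 UMIs, beside a productive TRBV13-3 with TRBJ1-1 of 10 UMIs in an ATRA cell that held 2 more contigs without V. In control the deepest was a TRBJ2-3 contig with 10 UMIs, beside a productive TRBV26 with TRBJ2-1 of 2 UMIs. A contig without V had fewer UMIs than the most abundant productive TRB of its cell in 47 of 75 ATRA cases, as many in 8 and more in 20, and in control the numbers were 16, 2 and 10 of 28. With the productive chain of each cell counted once, contigs without V summed to 0.772 times its UMIs over 59 ATRA cells and 0.916 times over 25 control cells.

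The 6 TRA contigs without V were all in the ATRA library and used 6 different segments, TRAJ25, TRAJ26, TRAJ32, TRAJ39, TRAJ47 and TRAJ49, with 1 to 5 UMIs and 307 to 825 bases. TRAJ25 and TRAJ47 were used by no productive chain in either library. In the 5 cells with a productive TRA, 0 had that J segment on it.

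Chains with a V, a J and a failed joint were mostly TRA. A CDR3 was missing or out of frame on 47 of 59 ATRA TRA contigs with both segments (79.7%, 67.2 to 89.0) and 16 of 32 TRB contigs (50.0%, 31.9 to 68.1). In control it was 5 of 8 (62.5%, 24.5 to 91.5) and 3 of 13 (23.1%, 5.04 to 53.8). Without a CDR3 the contig could not be read for frame and is counted here as failed on the deposited mark alone. The 29 out-of-frame CDR3s of both libraries were 23 different sequences of 15 to 66 bases. Of the 29, 8 were read from 2 bases inside the V start and 3 from before it. A further 9 ran past the J end, and in the other 9 this match did not find the usual start or end. Among those last 9, TRAV12-2 with TRAJ31 and TRAV12D-2 with TRAJ49 opened with the same 13 bases as the TRAV12-3 joint printed above. The count of 3 is thus a minimum. The contigs resembled productive ones in length, with medians of 537 bases (no CDR3) and 532.5 bases (out of frame) in ATRA, and in reads, with medians of 3686 and 3022 reads per UMI against 5361 for productive contigs.

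Of the cells with a productive TRA, a failed TRA was also present in 30.8% in ATRA (41 of 133, 23.1 to 39.4) and in 8.82% in control (3 of 34, 1.86 to 23.7). Of those with a productive TRB, a failed TRB was also present in 10.1% in ATRA (15 of 148, 5.78 to 16.2) and in 4.29% in control (3 of 70, 0.893 to 12.02). The TRA and TRB intervals of ATRA did not overlap, those of control did, and for each locus the intervals of the 2 libraries overlapped. Over both loci and all cells, a failed chain was found in 10.8% in control (8 of 74, 4.78 to 20.2) and 36.9% in ATRA (59 of 160, 29.4 to 44.9). These 2 intervals, at unequal depth, did not overlap. The intervals of this paragraph count cells as independent, though ATRA cells of 1 clone could share a failed chain, as given below. They are thus too narrow for failed chains in ATRA, for TRA as well as over both loci. With 1 library per treatment they do not measure a difference between treatments. In the cells with at least 6 UMIs the shares were 13.2% of 38 and 38.1% of 155, and after thinning of these cells to 6 UMIs the expected shares were 7.75% and 26.4%, where the intervals for the nearest whole numbers of cells (1.66 to 21.4 and 19.7 to 34.1) overlapped. A further productive TRA was present in 10.5% in ATRA (14 of 133) and in 0 of 34 in control, and a further productive TRB in 8.78% (13 of 148) and 5.71% (4 of 70). No doublet caller was run. A TRB contig without V lay beside a productive TRB in 39.9% in ATRA (59 of 148, 31.9 to 48.2) and 35.7% in control (25 of 70, 24.6 to 48.1).

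In ATRA cells with a productive TRB, failed TRB chains and TRB contigs without V seldom shared a cell. A contig without V was found in 1 of the 15 cells with a failed TRB beside the productive one (6.67%, 0.169 to 31.9) and in 58 of the 133 others with a productive TRB (43.6%, 35.0 to 52.5). That cell had a productive TRBV13-3 with TRBJ1-1 of 4 UMIs, TRBV19 with TRBJ1-2 of 1 UMI, and TRBJ2-1 without V of 5 UMIs. In control it was 2 of 3 cells and 23 of 67, where 3 cells are too few to compare. Among the 13 ATRA cells with more than 1 productive TRB, 6 had a contig without V (46.2%, 19.2 to 74.9). Of the 12 ATRA cells with no productive TRB, 1 had a failed TRB, TRBV15 with TRBJ1-1 of 2 UMIs. It also held contigs without V on TRBJ1-1 (1 UMI) and TRBJ2-1 (2 UMIs).

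Failed chains ranged from fewer to more UMIs than the working one. In ATRA the failed TRA had fewer UMIs than the productive TRA in 22 of 41 cells, as many in 8 and more in 11, and summed to 0.694 times its UMIs. The failed TRB had fewer in 10 of 15 cells, as many in 3 and more in 2, and summed to 0.340 times. With at least 3 UMIs on each, 14 ATRA cells held a failed TRA beside a productive one and 5 held a failed TRB, while no control cell did (0 of both). TRAV1 with TRAJ23, without CDR3, had 6 UMIs beside TRAV7D-2 with TRAJ17 of 7 UMIs. TRAV7-5 with TRAJ49, out of frame, had 6 UMIs beside TRAV5D-4 with TRAJ37 and TRAV21-DV12 with TRAJ53, both productive, of which the deeper had 5. These are more joined TRA chains than the 2 chromosomes of 1 cell give. The same barcode held 2 productive TRB chains, TRBV26 with TRBJ2-1 and TRBV13-1 with TRBJ2-7. Whether it held 1 cell was not tested. Of the 5 TRB cells, TRBV10 with TRBJ1-1 had 6 UMIs beside TRBV26 with TRBJ2-1 of 4, and TRBV1 with TRBJ1-3 had 3 UMIs beside TRBV23 with TRBJ2-4 of 14. TRBV13-1 with TRBJ2-7 and TRBV14 with TRBJ2-5 had 3 UMIs each, as had their productive chains. The fused name TRBV12-2+TRBV13-2 with TRBJ1-5 had 3 UMIs, beside productive TRBV13-1 and TRBV5 chains of which the deeper had 9. That barcode likewise held more joined TRB chains than 2 chromosomes give, and it recurs below in the clone with TRBV5 and TRBJ2-4.

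The J segments of the failed and the productive TRA of a cell lay near each other on the alpha locus, on chromosome 14. Over the 37 different pairs of both libraries, 34 of them from ATRA, they were a median of 7.83 kb apart (quartiles 4.95 and 15.1), against 15.2 kb when each failed chain was set beside the productive chains of the other pairs. Pearson's r between the positions was 0.55 and Spearman's rho 0.53, given as a description, since pairs share cells of 1 library and some share a chain. The failed chain used the J segment nearer the constant region in 21 pairs and the productive chain in 16, and 0 pairs used the same segment. In TRAV1 with TRAJ23 and TRAV7D-2 with TRAJ17, for example, both segments are from the part of the J array near the constant region.

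**Figure D4:**
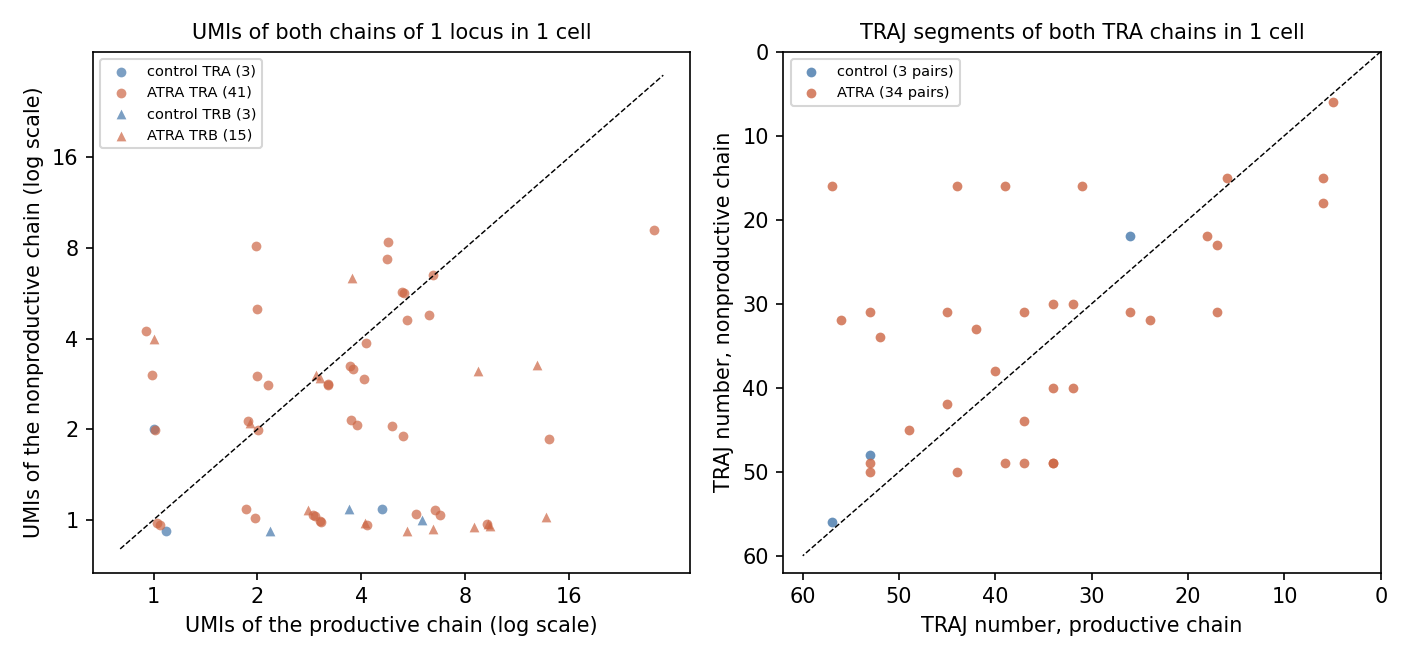
Left, UMIs of the failed chain (y axis) against the most abundant productive chain of the same locus and cell (x axis), both on log scales, with points moved slightly so that overlapping ones show and the dashed line at equal UMIs; right, TRAJ numbers of both TRA chains for the 37 different pairs. Of the 41 ATRA TRA points 11 lie above the line and 8 on it, and the pairs on the right scatter about the dashed line of equal numbers.

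Cells of 1 clone, here cells with the same productive TRB nucleotides, could share a failed chain in ATRA. TRAV12D-2 with TRAJ16, whose out-of-frame letters are printed above, was found in 6 of the 8 ATRA cells with the TRBV5 and TRBJ2-4 chain, with 2, 2, 3, 4, 7 and 8 UMIs. In 5 of them the productive TRA was TRAV6-6 with TRAJ39, and in 1 it was TRAV3-4 with TRAJ57. The barcode with TRAV3-4 also held a productive TRBV13-1 with TRBJ2-3 and the failed TRBV12-2+TRBV13-2 with TRBJ1-5 named above. These are more joined TRB chains than the 2 chromosomes of 1 cell give, and whether the barcode held 1 cell was not tested. TRAV12D-2 with TRAJ16 was found in 1 other cell, with 1 UMI and 1 read. TRAV12D-2 (chr14:52915915-52916426) and TRAJ16 (chr14:54203134-54203194) were productive in 2 ATRA contigs each. TRAV8N-2 with TRAJ45, without CDR3, was in 3 of the 5 cells with the TRBV29 and TRBJ1-2 chain, with 2, 10 and 5 UMIs beside 13, 26 and 5 of productive TRAV4-4-DV10 with TRAJ49. TRAV6-7-DV9 with TRAJ49, without CDR3, was in 3 of 3 cells with the TRBV29 and TRBJ2-1 chain, with 5, 1 and 6 UMIs beside 6, 1 and 5 of productive TRAV9-2 with TRAJ39. TRAV13D-3 with TRAJ31 was in 2 of 2 cells of the TRBV20 and TRBJ1-6 chain, and TRAV4D-4 with TRAJ32 in 2 of 2 of the TRBV14 and TRBJ1-5 chain. Each of these 4 chains without CDR3 is known by its segments alone, and none was found outside its clone (0 cells for each).

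TRAV10 with TRAJ56 was in 3 of 8 cells with the TRBV26 and TRBJ2-1 chain, with 1, 1 and 2 UMIs. Its V segment and V family had no productive chain in either library, so its frame was not read. All 3 cells held the same letters, which are shown because they tie the cells together.
TRAV10 with TRAJ56, ATRA: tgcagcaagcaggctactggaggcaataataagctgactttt
In 2 of the 3 the productive TRA was TRAV21-DV12 with TRAJ53, and the other had no productive TRA. That cell stood under its own deposited clonotype number.

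Counted over pairs of ATRA cells that carried a failed chain, 23 of 30 pairs with the same productive TRB shared it (76.7%) and 6 of 1566 other pairs did (0.383%). The 6 cells of the TRBV5 clone gave 15 of the 23, and pairs that share a cell are not independent. Contigs without V recurred in clones too, and less exclusively. TRBJ1-2 without V was in 3 of 3 cells of the TRBV29 and TRBJ2-1 chain, with 7, 3 and 3 UMIs, and in 1 other ATRA cell. TRBJ1-1 without V was in 4 of 5 cells of the TRBV13-1 and TRBJ2-7 chain, with 6, 13, 9 and 3 UMIs, and in 2 others. The contig of 13 UMIs was in the barcode with TRAV7-5 and TRAJ49 named above, which also held a productive TRBV26 with TRBJ2-1. Over pairs of ATRA cells with a TRB contig without V, 15 of 25 of 1 clone shared the J segment, and 373 of 1686 others did (22.1%). In control the numbers were 2 of 4 and 63 of 296 (21.3%), and no 2 control cells of 1 clone both had a failed chain with V and J (0 pairs).

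The in-frame class stood apart from the others in its reads. Of the 29 contigs of both libraries with under 10 reads per UMI, 24 were nonproductive and 23 of those were in frame. They were 8 of 13 in-frame contigs in control (61.5%, 31.6 to 86.1) and 15 of 25 in ATRA (38.7 to 78.9%), against 3 of 108 and 2 of 308 productive contigs. Reads per UMI left a clear gap, with 3.64 the highest value below 10, and with 4 contigs from 10 to 100. The contigs were short, with medians of 380.5 bases in control and 341 in ATRA, and 6 of 8 and 14 of 15 were shorter than the shortest productive contig of their library (414 and 420 bases). Some had many UMIs all the same. The control TRBV19 with TRBJ2-3 contig had 32 UMIs from 43 reads, and the other control cell with these letters had 1 UMI from 40477 reads. TRAV21-DV12 with TRAJ53 had 11, 15 and 21 UMIs from 16, 25 and 27 reads in 3 ATRA cells, none of which had another TRA.

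**Figure D5:**
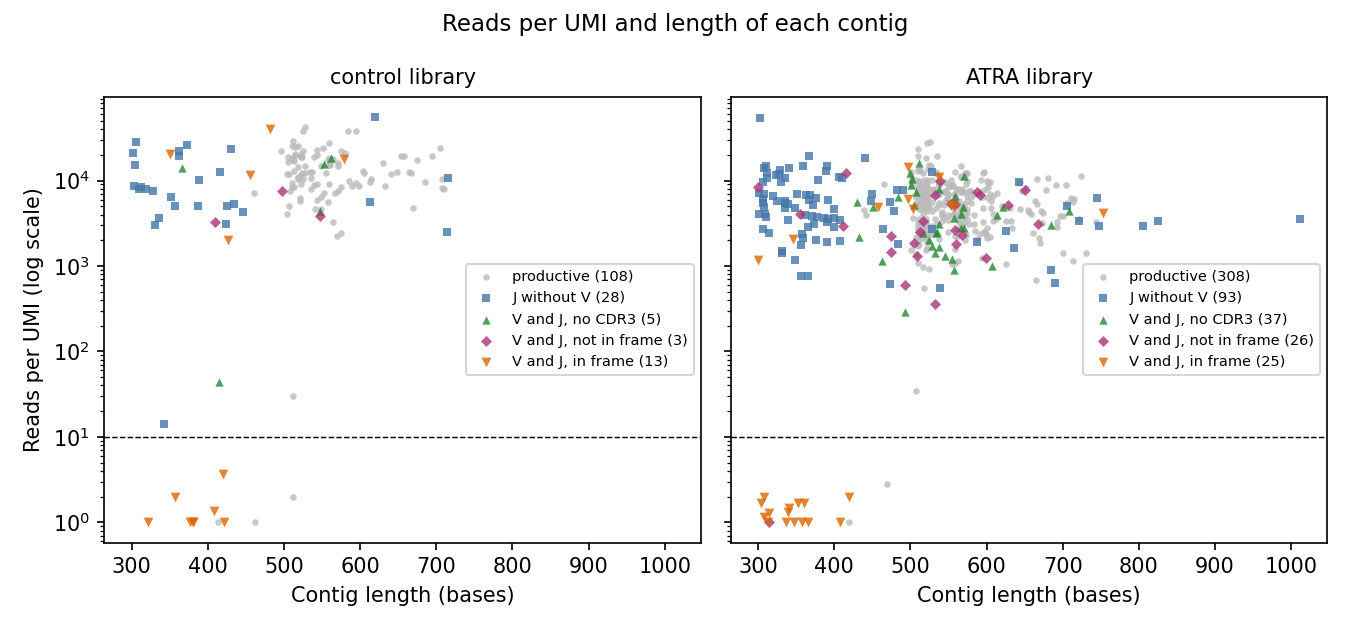
Each point is a contig, with its length in bases (x axis) and its reads per UMI on a log scale (y axis), and the dashed line is at 10 reads per UMI. In both libraries most points below the line are in-frame nonproductive contigs of about 300 to 420 bases, 8 in control and 15 in ATRA. The others are 3 productive contigs in control, and 2 productive and 1 out-of-frame contig in ATRA.

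Their letters were mostly those of other cells. Of the low-read in-frame contigs, 5 of 8 in control and 14 of 15 in ATRA had the V, J and CDR3 nucleotides of a chain that was productive in other cells of the series, and 0 had those of their own cell. Of the 5 control and 10 ATRA contigs whose cell had a productive chain of the other locus to compare, 0 shared it with a matching cell. A matching cell with no productive chain of that locus also counted as not sharing. TRBV5 with TRBJ2-4, the beta chain of the TRAV12D-2 clone above, was such a contig in 2 ATRA cells, with 3 UMIs from 4 reads and 6 UMIs from 7 reads. TRBV13-1 with TRBJ2-7 was one in 2 ATRA cells, from 1 and 2 reads, and was productive in 5 others.

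The 15 in-frame contigs with more reads were 5 in control and 10 in ATRA, with at least 1161 reads each. In ATRA 3 of the 10 had the letters of a chain productive elsewhere, and each of those 3 cells shared the chain of the other locus with a matching cell. They were TRAV5D-4 with TRAJ37 (2 UMIs, 346 bases; 3 matching cells), TRBV19 with TRBJ1-6 (2 UMIs, 753 bases; 4) and TRBV5 with TRBJ2-2 (1 UMI, 554 bases; 1). What made these contigs nonproductive is not shown by their CDR3, and the rest of their sequence was not analysed here. In control TRBV13-1 with TRBJ1-6 occurred in 2 cells, with 1 and 2 UMIs, and was productive in 1 other. Without the low-read contigs, an in-frame TRB lay beside a productive TRB in 2.86% in control (2 of 70) and 0.676% in ATRA (1 of 148), where all contigs gave 7 of 70 and 10 of 148 (6.76%).

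The V segments used most on contigs with both segments were TRAV12D-2 with 8 contigs, TRAV4-4-DV10 with 6, and TRAV6-7-DV9, TRBV13-1 and TRBV5 with 5 each of 93 in ATRA. In control they were TRBV13-1 with 6 of 22, TRAV6-7-DV9 and TRBV19 with 2 each, and others with 1. The J segments used most in ATRA were TRAJ16, TRAJ31, TRAJ49 and TRBJ2-7 with 7 each, and TRBJ2-4 with 5. In control TRBJ1-1, TRBJ1-6 and TRBJ2-3 had 3 each, and TRAJ31, TRAJ56 and TRBJ1-5 had 2. Nonproductive contigs used 90 segments, 48 V and 42 J, of which 15 were on no productive contig. TRAV8N-2, TRAV13D-3 and TRAV10, each on 3 ATRA contigs, were among those 15. RefSeq lists TRBV10 (chr6:41091935-41092228) and TRBV29 (chr6:41271403-41271881) as pseudogenes, yet both were on productive contigs, TRBV10 on 1 in control and 3 in ATRA, and TRBV29 on 10 and 16.

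Segments of the delta locus, which lies inside the alpha locus and serves gamma-delta T cells, were found on 3 contigs, all with a TRAC constant region and all under a chain name of several loci. Their CDR3 letters are printed to show the joint of a delta V with an alpha or delta J. The constant region is known from its deposited name alone. No TRGV or TRGJ segment was found (0 contigs).
TRDV1 with TRAJ37, control: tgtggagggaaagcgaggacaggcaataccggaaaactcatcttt
TRDV1 with TRAJ58, ATRA: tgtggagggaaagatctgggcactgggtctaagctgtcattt
TRDV2-2 with TRDJ1, ATRA: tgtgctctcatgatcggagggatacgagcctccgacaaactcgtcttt
The control contig had 1 UMI and 531 bases, the ATRA TRDV1 contig 1 UMI and 500 bases, and the TRDV2-2 contig 3 UMIs and 523 bases. TRDV1 (chr14:53881612-53882217), TRDV2-2 (chr14:53960993-53961602) and TRDJ1 (chr14:54123138-54123188) had no productive contig. Nor had the V families of TRDV1 and TRDV2-2, so the frame of these joints was not read.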

How the data were processed

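Receptor contigs of 1 control and 1 ATRA library were used, and the 2 gene expression libraries were not used here. Cell Ranger 3.1.0, bcl2fastq 2.20.0 and build GRCm38 are listed in the submitters' processing notes. The deposited tables give, per the file headers, raw UMI and read counts and the length in bases of each contig. All contigs were marked high confidence. Values were computed in Python 3.11.15 with pandas 2.3.3 and scipy 1.17.1. On simulated data the frame rule gave the intended call for 416 of 416 CDR3s under each of 3 made changes. The unchanged CDR3s stayed in the reference, and each change either spared both compared ends or altered 1 of them. That outcome was thus set by the design, and it checks the code alone, not the calls on real contigs. Set on productive chains with their own CDR3 left out, it called 5 of 408 out of frame. A failed chain has a V and a J, and no CDR3 or one out of frame. Shares have exact (Clopper-Pearson) 95% binomial intervals, contigs per cell exact Poisson ones, and a count of 0 allows up to 3 counts. Segment names matched RefSeq symbols of GRCm38.p6 for 89 of 90 segments. Named segments are the 5 used most per class and library (ties for the last place given, unless at 1 contig), all TRG and TRD segments, chains recurring in a clone, and cells with at least 3 UMIs on both chains. Other contigs were named after their values were seen. The members and lists were chosen with earlier results of these data known. Alternatives were minimums of 2 and 3 UMIs, cells with both chains, cells without extra chains, 1 cell per clonotype, and full-length contigs. Others were contigs marked False for productive and, added after seeing the data, contigs with at least 10 reads per UMI.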

Additional observations from a re-analysis of the deposited data

How the results depend on the processing

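With 1 library per treatment and no replicates, a value counts as moved when it left its own exact 95% interval. Of 161 values computed under alternatives for 22 results, 131 stayed inside it and 30 moved. Taking only contigs marked False could not move any of the 22, since 0 contigs had a mark other than True or False. Those unmoved values are among the 131. The alternatives of 1 cell per clonotype, leaving out cells with extra chains, and full-length contigs alone moved 0. No paired analysis was possible because each group has 1 library and no test was run. Most moves came from minimums of UMIs per contig, where fewer contigs remain by construction. At 2 and 3 UMIs, nonproductive contigs per cell were 0.324 and 0.218 in control and 0.881 and 0.609 in ATRA. Their median UMIs were 3 and 4 in control, and 4 at the minimum of 3 in ATRA. The share of cells with a productive TRB that also held a nonproductive TRB with both V and J, of other segments, was 4.62% and 2.08% in control (12.9% with all contigs) and 9.22% and 6.87% in ATRA (16.9%). For TRA it was 0% and 0% in control (8.82%) and 24.3% and 16.5% in ATRA (34.6%). V without J was 0% in both libraries under both. At 3 UMIs, nonproductive UMIs were 17.8% of control and 22.5% of ATRA UMIs, J without V 58.7% and V with J 41.3% of ATRA contigs, and the share of contigs without V with the J of the productive chain 0%, as it was for TRA alone. Cells with both chains gave 23.7% and 24.8% of UMIs. Without contigs under 10 reads per UMI these were 20.9% and 24.5%, and the ATRA cells with such a nonproductive TRB beside a productive one 10.3%. The control library, with 74 cells, limits every control share.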
